A study of Mus musculus with 6 samples.

Results

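A set of 10 genes of prostanoid synthesis, signalling and breakdown were followed in mouse aortic smooth muscle cells (MASMCs). They were taken by gene name from a table of 41721 genes and comprise the cyclooxygenases *Ptgs1* and *Ptgs2*, the terminal synthases *Ptges*, *Ptges2*, *Ptgis* and *Ptgds*, the receptors *Ptger2*, *Ptger4* and *Ptgfr*, and the degrading enzyme *Hpgd*. All 10 names were found once each. The cells came from abdominal aortas of Pdk4fl/fl mice, in which loxP sites flank exons 4 to 6 of *Pdk4*, and of Pdk4SMKO mice, which also carry *Myh11*-CreERT2, a tamoxifen-inducible Cre under a smooth muscle promoter. Mice of both genotypes received tamoxifen, cells were isolated at 10 weeks of age and used at passages 4 to 8, and all libraries are from cells treated with angiotensin II (Ang II), at 1 μM for 48 h in the methods of the study. There were 3 libraries per genotype and no library without Ang II. The study describes the 3 as biological replicates, but no label ties a library to an animal. The p-values thus measure the spread between these libraries, which may be technical.

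Library totals ranged from 16526044 to 22481670 counts. *Pdk4*, the deleted gene, had 421 to 639 counts in Pdk4fl/fl and 110 to 182 in Pdk4SMKO libraries. *Xist*, the RNA of the inactive X chromosome of female cells, had 3 to 5 counts in Pdk4fl/fl and 321 to 610 in Pdk4SMKO libraries, although the study places its Cre transgene on the Y chromosome. The genotypes also differed in markers of other cells. Summed mesothelial markers (7 of 8 tested, 7 higher) were 74.2 to 99.99 counts-per-million (CPM) in Pdk4fl/fl and 723 to 1325 CPM in Pdk4SMKO. Fibroblast markers (8 tested, 5 higher and 1 lower) were 634 to 867 and 5453 to 7468 CPM. Most of that sum was *Col1a1* (means of 620 and 5901 CPM), and *Pdgfra* and *Pi16* were not called. Macrophage markers (7 tested, 6 higher and 1 lower) summed to 21.4 to 38.0 and 11.8 to 36.6 CPM. Nearly all of the Pdk4fl/fl sum was *Cd68*, the 1 marker called lower (means of 31.2 and 4.29 CPM). *Adgre1*, *C1qa*, *C1qb*, *Tyrobp* and *Mrc1* were at 0 in every Pdk4fl/fl library. Endothelial markers (4 tested, 3 lower) were 19.3 to 27.5 and 3.33 to 6.72 CPM, with at most 1 count of *Cdh5* in any library. Mast cell markers (2 tested, both lower) were 73.4 to 103 and 12.03 to 15.5 CPM, nearly all of it *Kit*, with *Cma1*, *Tpsb2* and *Fcer1a* at 0 throughout. Of 10 smooth muscle markers, 6 were higher and 3 lower (summed levels 789 to 816 and 739 to 974 CPM). These sums hide opposite shifts of abundant genes. *Acta2* was higher (means of 233 and 701 CPM), while *Tagln* (253 and 52.7 CPM) and *Smtn* (280 and 57.5 CPM) were lower. *Myh11*, whose promoter drives the Cre, had only 8 to 10 counts per Pdk4fl/fl library. These differences run alongside every genotype difference given here, and their part in it was not tested. In bulk RNA, fewer cells of a type and less RNA per cell cannot be told apart.

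Prostanoids are short-lived lipid signals made from arachidonic acid. Phospholipases free the fatty acid from membranes, the cyclooxygenases PTGS1 (the constitutive isoform, COX-1) and PTGS2 (the inducible isoform, COX-2) turn it into prostaglandin H2, and terminal synthases convert that intermediate into prostaglandin E2, prostacyclin, prostaglandin D2, prostaglandin F2α or thromboxane. The products act on G protein-coupled receptors of the same and neighbouring cells, are taken up by a transporter and are inactivated by 15-hydroxyprostaglandin dehydrogenase. In the arterial wall, prostacyclin relaxes smooth muscle, and thromboxane and prostaglandin F2α contract it.

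The 2 cyclooxygenases moved in opposite directions. *Ptgs1* was higher and *Ptgs2* lower in Pdk4SMKO than in Pdk4fl/fl libraries. Of the terminal synthases, *Ptges* was higher and *Ptgds* lower, both on few counts. *Ptges* had at most 2 counts in any Pdk4fl/fl library and entered the test only through the Pdk4SMKO libraries. Of the 10 genes, 7 passed the filter on low counts, and of those 2 were called higher and 2 lower, at an adjusted p under 0.05 and a change of at least 2-fold (edgeR quasi-likelihood test, Benjamini-Hochberg). Among all 14085 genes tested, 32.8% were called higher and 26.5% lower, and the median log2 fold change was 0.12, so a call on its own does not set these genes apart from the rest of the transcriptome. That median was 0.33 with upper-quartile scaling and 0.72 with library totals alone, where 72.1% of called genes were higher against 55.3% in the TMM-scaled comparison. The genotypes did not overlap in 8 of the 10 genes, 5 with Pdk4SMKO above and 3 with Pdk4SMKO below. Of the 5 above, *Ptgfr* and *Hpgd* had at most 1 count in any Pdk4fl/fl library and were not tested. Among the 7 tested genes, 6 did not overlap, beside 81.8% of all tested genes without overlap. Exact two-sided permutation tests of 3 libraries against 3 cannot give a p under 0.1, and non-overlap reaches that limit.

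**Figure D1:**
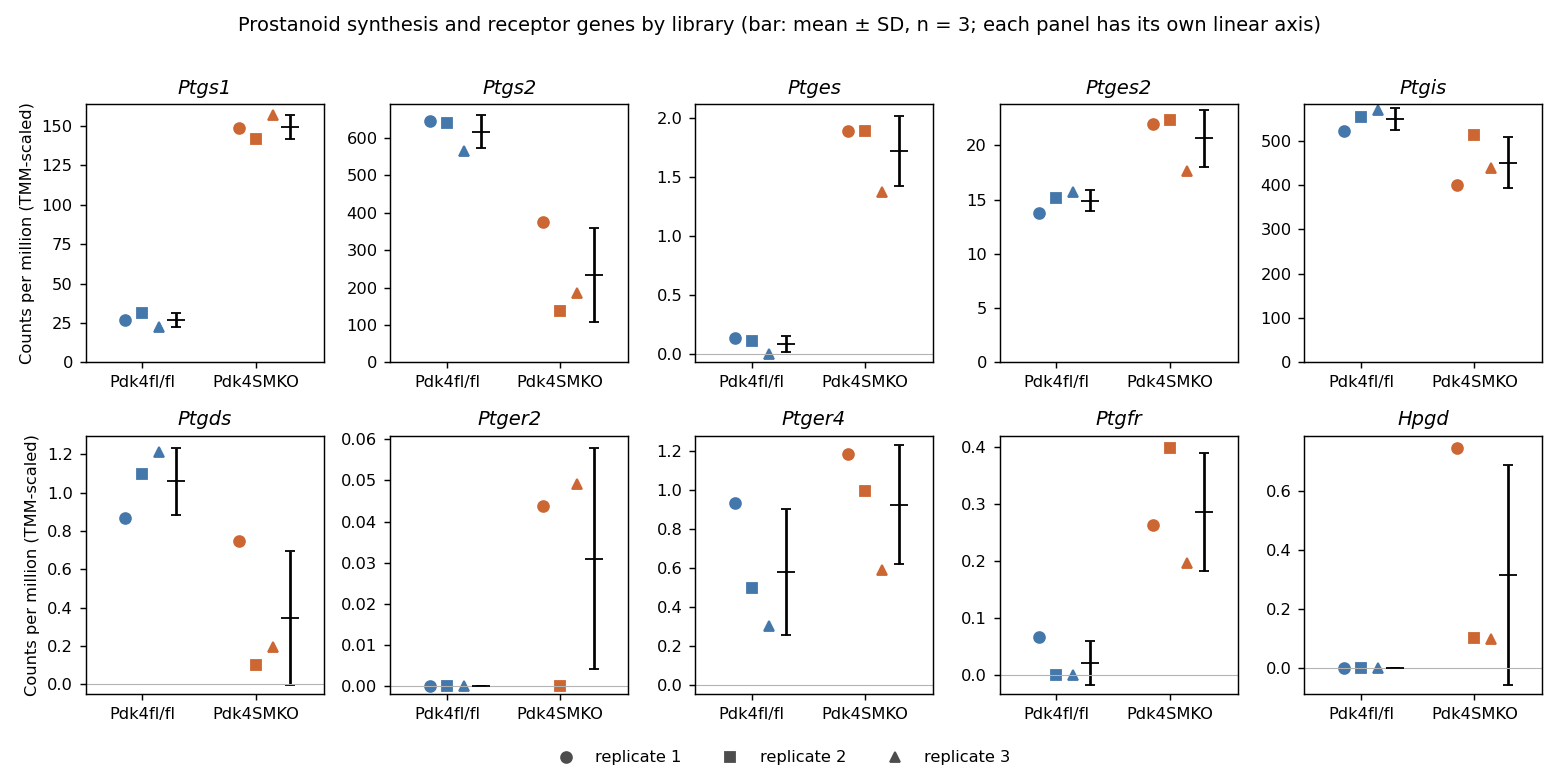
TMM-scaled level (CPM) of each of the 10 genes in every library (circle, square and triangle: replicates 1, 2 and 3), with the mean ± SD (n = 3) beside each genotype and a separate linear axis per gene. *Ptgs1* lay between 22.4 and 31.2 CPM in Pdk4fl/fl and between 142 and 157 CPM in Pdk4SMKO libraries, and the first Pdk4SMKO library stood above the other two for *Ptgs2*, *Ptgds* and *Hpgd*.

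*Ptgs1* is on chromosome 2 (35893760 to 35918413, plus strand, in the coordinates of the C57BL/6NJ annotation that the count table carries). It had 402, 568 and 296 counts in the Pdk4fl/fl libraries, and 3391, 2849 and 3199 counts in the Pdk4SMKO libraries. On the scaled axis these were 26.8, 31.2 and 22.4 CPM against 149, 142 and 157 CPM. Every Pdk4SMKO library was far above every Pdk4fl/fl library, and the 3 within a genotype were close together, with a coefficient of variation of 16.4% in Pdk4fl/fl and 5.08% in Pdk4SMKO. The log2 fold change was 2.47 (SE 0.15, 95% interval 2.15 to 2.80, adjusted p = 1.82e-07), or 5.56-fold. It lay between 2.35 and 2.61 when any one library was left out. An unnamed antisense gene that overlaps *Ptgs1* held 56 counts in all 6 libraries together, few beside the 9439 of *Ptgs1* in Pdk4SMKO alone.

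*Ptgs2* is on chromosome 1 (160079479 to 160089284, plus strand) and shares its span with no other annotated gene. Its counts were 9690, 11637 and 7472 in Pdk4fl/fl and 8552, 2767 and 3784 in Pdk4SMKO libraries, which correspond to 646, 639 and 565 CPM against 375, 138 and 186 CPM. All 3 Pdk4SMKO libraries were below all Pdk4fl/fl libraries, but the first of them stood at 2.32 times the mean of the other two, and the coefficient of variation was 54.0% in Pdk4SMKO against 7.23% in Pdk4fl/fl. *Ptgs2* fell by 1.40 on the log2 scale (SE 0.31, 95% interval -2.09 to -0.72, adjusted p = 0.00167), a level 2.65-fold higher in Pdk4fl/fl. The call held with any one library left out, from -1.92 without the first Pdk4SMKO library to -1.13. It was lost with library totals alone as the scale (log2 fold change -0.79, adjusted p = 0.0402) and in a test against the 2-fold limit itself (adjusted p = 0.0672). Set against the median of all genes under the same scaling, the difference was -1.52 with TMM factors and -1.52 with library totals.

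The first Pdk4SMKO library also had more of some marker RNAs than the other two. Its macrophage sum was 36.6 CPM against 18.1 and 11.8 CPM, and its mesothelial sum 1325 CPM against 723 and 829 CPM. The contractile genes *Tagln* and *Cnn1* stood at 2.44 and 4.27 times the mean of the other two. *Acta2* and *Myh11* stood at only 1.15 and 1.22 times that mean, and the summed smooth muscle markers at 1.22 times. The endothelial sum was at 1.72 and the mast cell sum at 0.789 times that mean. Fibroblast markers were within the range of the other two, at 7340 CPM. How much of the *Ptgs2* level in that library goes with any of these was not tested.

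The promoters of the 2 cyclooxygenases are shown because their transcripts changed in opposite directions. RefSeq windows of 300 bases (250 before and 50 from the annotated start onwards, build GRCm38.p6) were available for 9 of the 10 genes, all but *Ptgis*. The windows lie at chr2:36230176-36230475 on the plus strand for *Ptgs1* and at chr1:150099781-150100080 on the plus strand for *Ptgs2*, and that of *Ptges*, the synthase called higher, at chr2:30903248-30903547 on the minus strand. Each runs 5′ to 3′ with the transcription start at base 251. Capitals mark matches to any of 6 motifs searched on both strands, which were the TATA box as TATAAA, the CCAAT box, the core of the cyclic AMP response element as TGACG, the E-box as CACGTG, the AP-1 site as TGANTCA and the NF-kappaB consensus.
Ptgs1: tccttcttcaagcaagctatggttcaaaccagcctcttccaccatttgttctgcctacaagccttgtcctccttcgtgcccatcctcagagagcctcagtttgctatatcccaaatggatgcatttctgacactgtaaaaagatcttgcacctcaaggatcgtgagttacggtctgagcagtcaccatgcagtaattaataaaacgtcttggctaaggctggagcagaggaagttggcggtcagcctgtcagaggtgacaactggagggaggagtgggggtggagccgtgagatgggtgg
Ptgs2: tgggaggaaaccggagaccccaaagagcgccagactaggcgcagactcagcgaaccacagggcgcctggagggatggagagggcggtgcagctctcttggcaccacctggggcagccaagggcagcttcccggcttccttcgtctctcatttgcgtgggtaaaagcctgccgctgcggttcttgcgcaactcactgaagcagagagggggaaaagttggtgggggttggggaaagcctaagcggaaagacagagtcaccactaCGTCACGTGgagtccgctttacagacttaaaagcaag
Ptges: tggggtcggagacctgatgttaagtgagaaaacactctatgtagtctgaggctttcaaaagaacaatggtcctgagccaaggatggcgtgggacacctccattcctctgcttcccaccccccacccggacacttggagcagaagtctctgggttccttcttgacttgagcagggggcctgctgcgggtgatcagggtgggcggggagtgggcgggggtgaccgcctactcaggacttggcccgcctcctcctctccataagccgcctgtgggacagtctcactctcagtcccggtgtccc
The *Ptgs2* window held 2 overlapping matches, TGACG on the minus strand at bases 264 to 268 and CACGTG at bases 267 to 272. Both lie just downstream of the annotated start, and whether transcription starts there in these cells was not tested. The windows of *Ptgs1* and *Ptges* held none of the 6 motifs as spelled. TGACG was found in 20.9% and CACGTG in 7.17% of 32544 distinct mouse promoter windows of the same length. A match is a run of letters and not evidence of binding.

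The ratio of the cyclooxygenase transcripts within a library does not depend on how libraries are scaled to each other. Per kilobase of annotated gene length, *Ptgs2* exceeded *Ptgs1* by 20.4, 17.4 and 21.4 times in the Pdk4fl/fl libraries. In the Pdk4SMKO libraries the ratio was 2.14, 0.824 and 1.00. The log2 ratio thus dropped by 4.02, from 4.30 ± 0.16 to 0.27 ± 0.73 (SD, n = 3, exact permutation p = 0.1, the smallest possible), a 16.2-fold difference between geometric means that lay between -4.43 and -3.75 on the log2 scale with any one library left out. *Ptgs1* rose from 4.86% ± 0.52 to 45.5% ± 12.1 of the cyclooxygenase transcripts per kilobase. In Pdk4SMKO cells the isoforms were thus near parity and their levels overlapped, at 36.5 to 40.4 CPM per kilobase for *Ptgs1* and 30.1 to 82.0 CPM per kilobase for *Ptgs2*. The summed level of both was 148, 148 and 129 CPM per kilobase in Pdk4fl/fl and 120, 66.6 and 80.9 in Pdk4SMKO libraries, a mean at 63.1% of the Pdk4fl/fl mean (exact permutation p = 0.1). Unlike the ratio, this sum depends on the scaling between libraries. With library totals alone it was 124, 120 and 101 against 151, 80.6 and 99.8, the genotypes overlapped, and the mean was at 96.1%, so no fall in total cyclooxygenase RNA can be given.

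**Figure D2:**
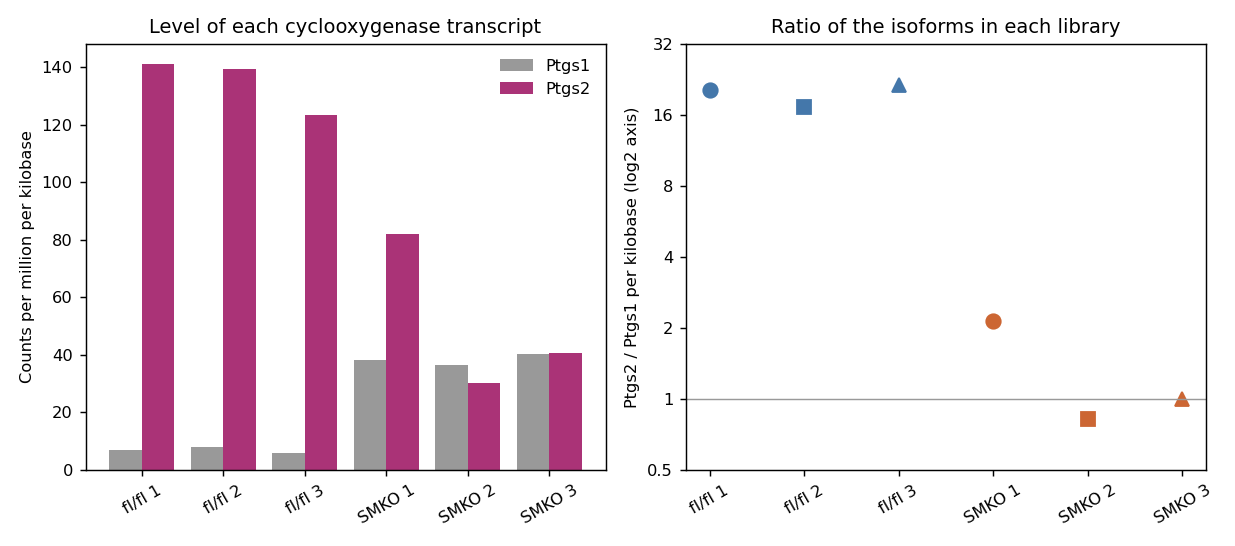
Left, *Ptgs1* and *Ptgs2* in CPM per kilobase of gene length in each of the 6 libraries. Right, the ratio of *Ptgs2* to *Ptgs1* on a log2 axis, one point per library, with a line at a ratio of 1. The 3 Pdk4fl/fl libraries lie between 17.4 and 21.4, and the 3 Pdk4SMKO libraries between 0.824 and 2.14.

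Among the terminal synthases, prostacyclin synthase was the most abundant in both genotypes by a wide margin. *Ptgis* (chromosome 2, 177933509 to 177994590, minus strand), which converts prostaglandin H2 to prostacyclin, stood at 521, 554 and 570 CPM in Pdk4fl/fl and 400, 513 and 439 CPM in Pdk4SMKO libraries. The genotypes did not overlap, but the gap was small beside the spread. Its log2 fold change of -0.28 (SE 0.13, 95% interval -0.57 to 0.002, adjusted p = 0.0641) did not pass the test, and it was 0.32 with library totals alone as the scale, so no direction can be given for it. Per kilobase, *Ptgis* made up 98.3% ± 0.06 of the transcripts of the 4 synthases in the set in Pdk4fl/fl and 97.3% ± 0.56 in Pdk4SMKO (SD, n = 3, exact permutation p = 0.1). *Gm14291*, on the opposite strand within the same span, had 182 counts over all libraries, against 7526 to 10299 counts of *Ptgis* in each.

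*Ptges* (chromosome 2, 30126510 to 30170297, minus strand) encodes microsomal prostaglandin E synthase-1, the inducible enzyme usually coupled to PTGS2. It was at 2, 2 and 0 counts in Pdk4fl/fl and at 43, 38 and 28 counts in Pdk4SMKO libraries, or at most 0.133 CPM against 1.37 to 1.89 CPM. The Pdk4fl/fl counts do not exceed the floor of 3 counts per library, so *Ptges* entered the test only through the Pdk4SMKO libraries. The pooled rates differed 20-fold (95% exact counting interval 7.59 to 74.7, which covers counting error only). The fitted log2 fold change, which depends on the prior count, was 4.22 (SE 0.60, adjusted p = 8.67e-05). In the annotation its span lies over *Golga2* of the opposite strand, a gene with 1577 to 2562 counts per library and a log2 fold change of -0.30, and the use of strand in counting is not given in the sources used here. *Ptges* thus rose while *Ptgs2* fell, but its level of 0.50 ± 0.09 CPM per kilobase in Pdk4SMKO remained far under the 50.9 ± 27.5 CPM per kilobase of *Ptgs2* (SD, n = 3).

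*Ptges2* (chromosome 2, 31794693 to 31806529, plus strand) encodes a membrane-associated prostaglandin E synthase. It was at 13.8, 15.2 and 15.7 CPM in Pdk4fl/fl and 22.0, 22.3 and 17.6 CPM in Pdk4SMKO libraries. The mean was 38.6% higher in Pdk4SMKO, with a log2 fold change of 0.47 (SE 0.16, 95% interval 0.12 to 0.82, adjusted p = 0.0185), which is under the 2-fold limit. With library totals as the scale it was 1.08 and would be called. Per kilobase it stood above *Ptges* in both genotypes, at 2.95 ± 0.20 against 0.024 ± 0.021 CPM in Pdk4fl/fl and 4.08 ± 0.52 against 0.50 ± 0.09 CPM in Pdk4SMKO. A row for the cytosolic enzyme *Ptges3* could not be matched by name.

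*Ptgds* (chromosome 2, 24101547 to 24104925, minus strand), the lipocalin-type prostaglandin D synthase, was scarce. It had 13, 20 and 16 counts in Pdk4fl/fl and 17, 2 and 4 counts in Pdk4SMKO libraries, or 0.867, 1.10 and 1.21 CPM against 0.746, 0.0995 and 0.196 CPM. The first Pdk4SMKO library was close to the Pdk4fl/fl range and 5.05 times the mean of the other two. The log2 fold change of -1.55 (SE 0.61, 95% interval -2.91 to -0.19, adjusted p = 0.0383) was called, but the call was lost on leaving out any library other than that one, with values from -1.68 to -1.12 and adjusted p between 0.0584 and 0.129. Without that library it was -2.77. The call was also lost with upper-quartile scaling (-1.34, adjusted p = 0.0697), with library totals (-0.94, adjusted p = 0.183) and in the test against 2-fold (adjusted p = 0.157).

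The members of the receptor group were at or near the limit of detection. *Ptger4* (chromosome 15, 2221833 to 2260228), the prostaglandin E2 receptor EP4 that raises cyclic AMP, had 14, 9 and 4 counts in Pdk4fl/fl and 27, 20 and 12 in Pdk4SMKO libraries. The ranges overlapped, at 0.303 to 0.933 and 0.589 to 1.19 CPM. The log2 fold change of 0.67 had a 95% interval from -0.44 to 1.77 (adjusted p = 0.235), an interval that includes both a fall and a rise. With library totals as the scale it was 1.26 (adjusted p = 0.0402) and would be called. *Ptger4* overlaps *Ttc33* on the opposite strand.

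*Ptgfr* (chromosome 3, 160764460 to 160805939), the receptor for the constrictor prostaglandin F2α, had 1, 0 and 0 counts in Pdk4fl/fl and 6, 8 and 4 in Pdk4SMKO libraries. The ratio of pooled rates was 13.2 with a counting interval of 2.09 to 550. It did not pass the filter, and without that filter edgeR gave an adjusted p of 0.0301. *Ptger2* (chromosome 14, 40268718 to 40285477), the other cyclic AMP-coupled receptor for prostaglandin E2, had 2 counts in all, 1 each in the first and the third Pdk4SMKO library. A difference in *Ptger2* was not detectable at this depth, at which a count of 3 corresponds to 0.132 to 0.227 CPM.

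*Hpgd* (chromosome 8, 58120319 to 58149871), 15-hydroxyprostaglandin dehydrogenase, which inactivates prostaglandins, had no count in Pdk4fl/fl and 17, 2 and 2 counts in Pdk4SMKO libraries. Its mean was at least 1.595-fold higher in Pdk4SMKO against a floor of 3 counts per library. This bound rests on the first Pdk4SMKO library, since the mean of the other two is only 0.501 of the floor. Without the filter edgeR gave an adjusted p of 0.00482, with the same single library behind it.

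Ranked by CPM per kilobase in Pdk4fl/fl, *Ptgis* (214 ± 9.6) and *Ptgs2* (135 ± 9.7) led, followed by *Ptgs1* (6.90 ± 1.13), *Ptges2* (2.95 ± 0.20) and *Ptgds* (0.642 ± 0.106). Neighbours in this order did not overlap. In Pdk4SMKO the order began with *Ptgis* (175 ± 22), *Ptgs2* (50.9 ± 27.5) and *Ptgs1* (38.4 ± 2.0), where the second and the third overlapped, and went on with *Ptges2* (4.08 ± 0.52) and *Ptges* (0.50 ± 0.09). *Ptgds*, *Hpgd*, *Ptger4* and *Ptgfr* followed with means of 0.211, 0.183, 0.139 and 0.042, whose library ranges overlapped in part, and *Ptges* overlapped with *Ptgds*. Only 5 of the 10 genes were over 3 counts in all 6 libraries, namely *Ptgs1*, *Ptgs2*, *Ptges2*, *Ptgis* and *Ptger4*. As to position, 5 of the 10 are on chromosome 2 (*Ptgs1*, *Ptges*, *Ptges2*, *Ptgis* and *Ptgds*), and these include genes called in either direction.

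Around these genes the prostanoid pathway was examined through 38 further genes, a list made with earlier results of these data known. Of these, 36 were found and 24 tested, of which 11 were higher (45.8%, beside 32.8% of all tested genes), 4 lower (16.7%, beside 26.5%) and 9 not called. Of the 11 higher genes, 5 had under 10 counts in every Pdk4fl/fl library. These 5 passed the filter only through the Pdk4SMKO libraries and could only come out higher. The 24 genes had a median log2 fold change of 0.54, also with the 4 genes without counts in Pdk4fl/fl at their bounds, beside 0.12 for all genes tested. Calls were spread over all 4 roles. The highest fitted fold changes were those of the 5 genes with under 10 counts, all synthases or receptors, followed by the uptake transporter *Slco2a1*. For those 5 genes the fitted size depends on the prior count, so it does not rank the roles.

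**Figure D3:**
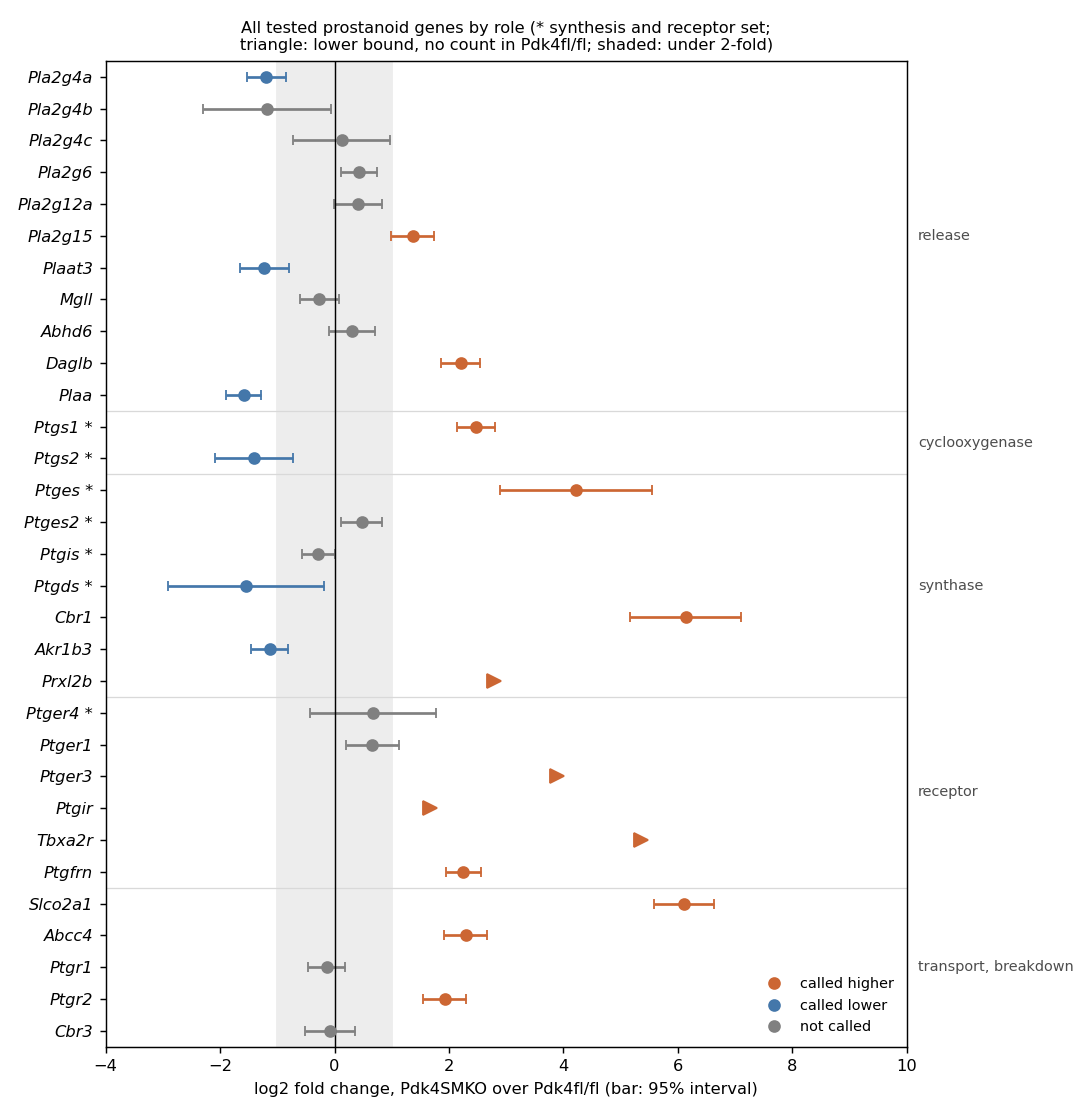
Log2 fold change of Pdk4SMKO over Pdk4fl/fl with its 95% interval for the 24 tested pathway genes and the 7 tested genes of the set (asterisks), grouped by role. Triangles are lower bounds for genes with no count in Pdk4fl/fl, and the shaded band is under 2-fold. *Ptgs1* and *Ptgs2* lie on opposite sides of 0. Of the 5 further genes tested in the receptor group, 4 lie to the right of the band. These are 3 receptors shown as lower bounds and *Ptgfrn*, which binds a receptor.

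Arachidonate release was mixed, with 2 genes higher, 3 lower and 6 not called of 11 tested (median 0.12). *Pla2g4a*, the cytosolic phospholipase A2 that supplies most arachidonate to the cyclooxygenases, was at 136, 149 and 157 CPM in Pdk4fl/fl and 77.4, 52.7 and 63.6 CPM in Pdk4SMKO libraries. It fell by 1.19 on the log2 scale (SE 0.15, adjusted p = 4.2e-05), and with library totals as the scale the value was -0.58 and not called. *Pla2g4a* lies next to *Ptgs2* on chromosome 1, with 143053 bases between the annotated spans, and as for *Ptgs2* its highest Pdk4SMKO library was the first. *Plaa*, the phospholipase A2-activating protein, fell by 1.59, and *Plaat3*, a phospholipase and acyltransferase, fell by 1.23. *Daglb*, a diacylglycerol lipase, was higher by 2.21 and the lysosomal phospholipase *Pla2g15* by 1.37 (log2 scale).

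Of the further terminal synthases, 3 could be tested, of which *Cbr1* and *Prxl2b* passed the filter only through the Pdk4SMKO libraries. *Cbr1*, a carbonyl reductase that can convert prostaglandin E2 to F2α, had 6, 4 and 0 counts in Pdk4fl/fl and 313, 325 and 343 counts in Pdk4SMKO libraries. The pooled rates differed 72.0-fold (counting interval 39.0 to 151). *Prxl2b*, a prostaglandin F synthase, had no count in Pdk4fl/fl and 37, 25 and 25 counts in Pdk4SMKO, at least 6.92-fold higher, and its span overlaps *Mmel1*. *Akr1b3*, an aldose reductase with prostaglandin F synthase activity, moved the other way and fell by 1.13 (adjusted p = 4.05e-05), from 100.4 ± 11.5 to 45.7 ± 6.4 CPM (SD, n = 3). Its value was -0.52 with library totals as the scale. Thromboxane synthase (*Tbxas1*, 7, 2 and 0 against 30, 7 and 6 counts) and hematopoietic prostaglandin D synthase (*Hpgds*, 3, 2 and 0 against 5, 6 and 2 counts) did not pass the filter.

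Among the receptors outside the set, 3 with no count in any Pdk4fl/fl library were detected in every Pdk4SMKO library. *Tbxa2r*, the thromboxane receptor, had 174, 206 and 132 counts, at least 41.2-fold higher than the floor of the Pdk4fl/fl libraries. *Ptger3*, the EP3 receptor that lowers cyclic AMP, had 23, 100 and 56 counts, at least 14.8-fold higher, or 9.52-fold without the second Pdk4SMKO library. *Ptgir*, the prostacyclin receptor, had 16, 12 and 12 counts, at least 3.19-fold higher. The filter let these 3 through only on account of the Pdk4SMKO libraries. *Ptger1* (EP1), the most abundant receptor transcript per kilobase in both genotypes, was at 33.0 ± 9.6 and 52.3 ± 5.7 CPM (SD, n = 3) and not called, with a log2 fold change of 0.66 (adjusted p = 0.0131). With library totals as the scale the value was 1.26 (adjusted p = 0.000397) and would be called. The counts of *Ptger1* are uncertain without knowledge of strand. *Ptgfrn*, a membrane protein that binds the prostaglandin F receptor and reduces ligand binding, rose by 2.25 (adjusted p = 2.29e-07), from 30.4 ± 4.1 to 145 ± 8.8 CPM.

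Shares were taken per kilobase over the 9 prostanoid receptors of the table, of which *Ptgdr* had no count in any library. *Ptger1* made up 97.0% ± 0.74 of the receptor transcripts in Pdk4fl/fl and 65.8% ± 4.9 in Pdk4SMKO libraries, and *Tbxa2r* 0% and 28.4% ± 3.1 (SD, n = 3, exact permutation p = 0.1). *Ptger4* was at 1.24% ± 0.54 and 0.85% ± 0.22 (exact permutation p = 0.4), and *Ptgfr* at 0.044% ± 0.076 and 0.257% ± 0.058 (exact permutation p = 0.1), on a single count in Pdk4fl/fl. *Ptgdr2*, a prostaglandin D2 receptor, had 4, 5 and 4 counts in Pdk4fl/fl and 1, 8 and 2 in Pdk4SMKO libraries. These shares rest on the uncertain counts of *Ptger1*. Without it, *Ptger4* was at 42.0% ± 13.7 in Pdk4fl/fl and 2.54% ± 0.91 in Pdk4SMKO libraries (exact permutation p = 0.1), on 27 and 59 counts in all, although its level did not pass the test.

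For transport and breakdown, 3 of 5 tested genes were higher and none lower. *Slco2a1*, the prostaglandin uptake transporter that brings the lipids to intracellular breakdown, was at 5.87, 4.17 and 3.18 CPM in Pdk4fl/fl and 253, 323 and 343 CPM in Pdk4SMKO libraries. Its log2 fold change of 6.11 (SE 0.23, adjusted p = 1.88e-08) was among the largest of the pathway. The efflux pump *Abcc4*, which exports prostaglandins and cyclic nucleotides, rose by 2.30, from 16.4 ± 3.1 to 80.6 ± 9.9 CPM. The reductase *Ptgr2* rose by 1.92, from 12.8 ± 2.3 to 48.3 ± 5.1 CPM. *Ptgr1*, which also reduces oxidized prostaglandins, was at 29.9 ± 4.3 and 27.3 ± 1.0 CPM, with a log2 fold change of -0.13 (adjusted p = 0.414) that turned positive with upper-quartile and library-total scaling. *Slco2a1*, *Abcc4* and *Ptgr2* were thus above the Pdk4fl/fl range in all Pdk4SMKO libraries, whereas *Hpgd* was above the floor in 1 of them.

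The 3 lists next to the pathway were counted in the same way, and their counts stand beside the 32.8% higher and 26.5% lower of all tested genes. Of 5 tested genes of the lipoxygenase, leukotriene and epoxide branch, 2 were higher and 2 lower (median -1.21). *Ephx2*, the soluble epoxide hydrolase, had 4, 0 and 0 counts in Pdk4fl/fl and 1198, 991 and 1085 counts in Pdk4SMKO libraries, *Ephx1* rose by 2.42, and the epidermal-type lipoxygenase *Aloxe3* fell by 4.74. Of 25 tested genes that couple the receptors to G proteins, adenylyl cyclases and protein kinase A, 12 were higher and 4 lower (median 0.69). The adenylyl cyclases *Adcy9*, *Adcy7* and *Adcy5* rose by 3.69, 3.58 and 3.36. The genes that fell were the protein kinase A regulatory subunits *Prkar1b* (-2.67) and *Prkar2b* (-1.92) and the G protein alpha subunits *Gna13* (-1.38) and *Gnas* (-1.23). *Gnas* varied within Pdk4fl/fl, at 100, 142 and 269 CPM. Neither family moved in one direction, since *Prkar1a* (1.10), *Prkar2a* (2.08), *Gna11* (2.24), *Gna12* (1.14) and *Gnai1* (1.33) were called higher. Of 15 tested genes listed for activation, re-esterification or desaturation of arachidonate, 6 were higher and 3 lower (median -0.03). The 6 include *Anxa1* (1.39), which is not an enzyme of these steps. *Mboat1* rose by 3.15, *Lpcat3* by 2.93 and *Mboat7* by 1.69, all of which place fatty acids back into phospholipids.

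Across the 9 available promoter windows, 6 held at least 1 of the motifs and 3 (*Ptgs1*, *Ptges* and *Ptgfr*) held none. *Ptgds* had TGANTCA at bases 216 to 222 and an NF-kappaB match at bases 229 to 238, *Ptges2* a CACGTG at bases 174 to 179, *Ptger2* and *Ptger4* a CCAAT each, and *Hpgd* a TATAAA at bases 255 to 260, past its annotated start. In all windows of this length, TGANTCA was found in 7.79%, the NF-kappaB consensus in 4.53%, CCAAT in 37.4% and TATAAA in 13.6%. The genes called higher, *Ptgs1* and *Ptges*, held no match and so could not share one. Those called lower, *Ptgs2* and *Ptgds*, had no motif in common. So few genes do not allow a reading of either. GC content ran from 37.7% (*Ptger2*) to 67.0% (*Ptger4*), with *Ptgs1* at 50.7% and *Ptgs2* at 59.3% beside a median of 53.0% over all windows.

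**Figure D4:**
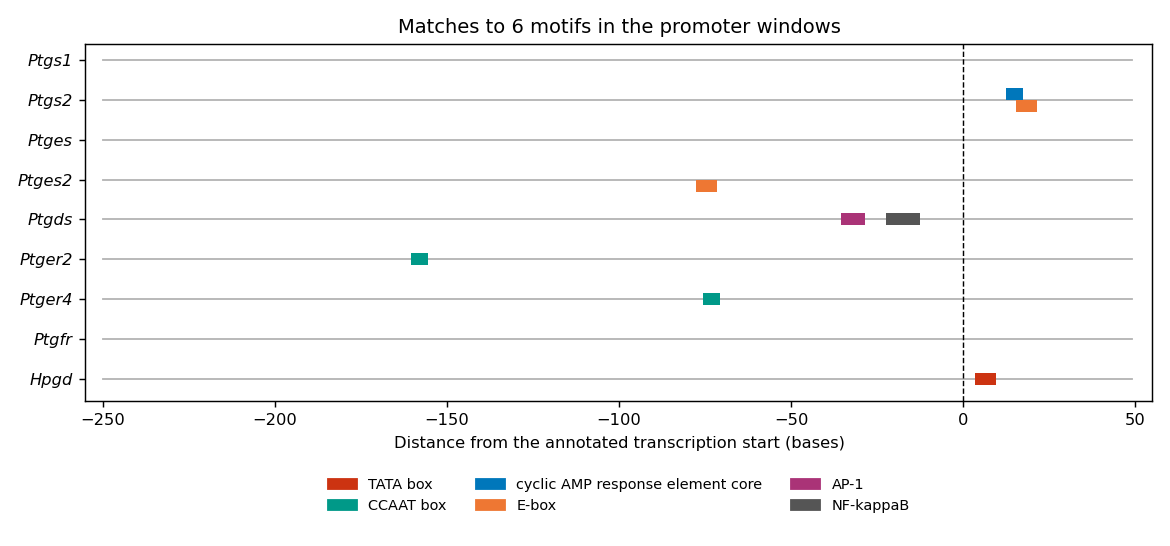
Positions of the matches to 6 motifs in the promoter windows of 9 genes, in bases from the annotated transcription start (dashed line), each box as wide as its motif. Matches are sparse, 8 in 9 windows, and *Ptgs2* carries an overlapping pair just after the annotated start where *Ptgs1* carries no match.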

How the data were processed

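RNA of 6 libraries of cultured MASMCs was sequenced as paired-end reads of 150 bases. The study names the NEBNext Ultra kit and the labels SMARTER. The deposited values are counts, whole numbers of reads per gene made by the authors without normalization. Aligner, counting program and use of strand are not given in the sources used here. The submitters' processing notes name GRCm39, but the identifiers and coordinates in the table are those of Ensembl's C57BL/6NJ annotation. The genotype in the labels gave the groups. Totals of 16526044 to 22481670 counts set the precision.

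The analysis used edgeR 4.0.16 in R 4.3.3 (filterByExpr, TMM, quasi-likelihood test on genotype alone, Benjamini-Hochberg over 14085 genes). A call required an adjusted p under 0.05 and at least 2-fold. CPM are TMM-scaled. A floor of 3 counts per library covers counting error only. The cyclooxygenase ratio and the cyclooxygenase and synthase shares add 0.5 to each count, the receptor shares nothing. Alternatives were DESeq2 1.42.0, RLE, upper-quartile and library-total scaling, other filters and thresholds, a replicate-number block, a restriction to protein-coding genes, and omission of each library. The scripts were tested on simulated counts. Named genes were all 10 genes of the set, 14 direct neighbours in the pathway whatever their result, and up to 3 called genes without overlap per further list. *Plaat3*, *Xist*, *Prkar1a*, *Prkar1b*, *Prkar2a*, *Prkar2b*, *Gna11*, *Gna12*, *Gna13*, *Gnai1*, *Gnas*, *Anxa1*, *Ptgdr2* and the overlapping genes were chosen after their values were seen. The genes and lists were chosen with earlier results of these data known. Promoters are RefSeq windows of GRCm38.p6.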

Additional observations from a re-analysis of the deposited data

How the results depend on the processing

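The 16 alternatives all kept *Ptgs1* called higher (log2 fold change 2.35 to 3.08). The log2 ratio of *Ptgs2* to *Ptgs1* lay between -4.43 and -3.75 over its 8 alternatives. Members of the set called lower numbered 2 in the report, 1 with upper-quartile scaling, 0 with library totals, 1 where every library had to reach 10 counts, 0 in the test against 2-fold, and 1 to 2 with one library left out. Those called higher numbered 2 in the report, 4 with library totals, 4 without a filter and 1 under that limit of 10. Over all genes, 2390 were lower with library totals, against 3733 in the report. On that scale *Ptgis* was 0.32 and *Ptgr1* 0.48, and *Ptgr1* was 0.079 with upper-quartile scaling. *Pla2g4a* and *Akr1b3* lost their calls in the test against 2-fold and with upper-quartile or library-total scaling, and *Plaa* with library totals. Without division by length, the difference in share (percentage points, Pdk4SMKO minus Pdk4fl/fl) was 0.350 for *Ptges*, 1.76 for *Ptges2*, -1.999 for *Ptgis*, -17.2 for *Ptger1*, 0.370 for *Ptgfr*, 0.97 for *Ptgir* and 12.3 for *Tbxa2r*. Without *Ptger1* in the sum, an alternative chosen after seeing the data, it was 0.179 for *Ptger2*, 8.80 for *Ptger3*, -39.5 for *Ptger4*, -0.56 for *Ptgfr*, 3.55 for *Ptgir*, 83.1 for *Tbxa2r* and -55.6 for *Ptgdr2*. The summed cyclooxygenase level was 96.1% of that in Pdk4fl/fl with library totals, also added after seeing the data, and 52.1% to 71.1% with one library left out. Between TMM factors and library totals the median of all genes moved from 0.12 to 0.72. For the other changes the cause was not tested.

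Same-numbered libraries deviated together only weakly (correlations 0.040, 0.060 and 0.176), and 4 of 6 libraries correlated best with their own number. With the replicate number as a block, 3704 genes were lower and 4577 higher, and 2 and 2 members of the set. Depth limits *Ptges*, *Ptgds*, *Ptger2*, *Ptgfr* and *Hpgd*, each with counts of 4 or fewer in at least 2 libraries.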
